A study of Mus musculus with 3 samples.

Results

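Wnt2, Wnt2b, Wnt4, Wnt5a, Wnt5b, Wnt6, Wnt9a, Wnt10b, Wnt11 and Wnt16 encode 10 of the mouse Wnt ligands. They were read on 12 of the 39407 probes of an Agilent mouse expression array, and they are 10 of the 20876 genes whose probes could be named through a RefSeq accession. Membership was by gene symbol, and the list was chosen with earlier results of these data known. RNA came from primary cells of C57BL/6 mice, labelled as endothelial and taken from the erectile (cavernous) tissue of the penis. The 3 one-colour arrays held cells kept for 48 h in high glucose (30 mmol as labelled) with added DKK2 protein, in high glucose alone, and in normal glucose (5 mmol). All of the cells grew in Medium 199 with fetal bovine serum, heparin and vascular endothelial growth factor A, and no source used here gives the dose of DKK2. Each array held a pool of RNA from 3 samples. Each condition therefore had 1 array, differences have no replicate check, and no p-value is given. That number limits the precision, and condition cannot be told apart from the place of an array on its slide.

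Wnt ligands are secreted, lipid-modified glycoproteins that bind Frizzled receptors on the same or a neighbouring cell. With the co-receptors LRP5 and LRP6 they stabilise beta-catenin, which drives target genes with TCF/LEF factors, while other ligand and receptor pairs act on cell polarity, the cytoskeleton and calcium without beta-catenin. DKK2 (Dickkopf 2) is a secreted protein that binds LRP5 and LRP6 and modulates the beta-catenin branch. In vessels, Wnt signals take part in endothelial growth, sprouting and barrier formation.

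The endothelial label was set against marker genes. Of 14 endothelial markers, 13 were well above background with DKK2, 14 in high glucose and 12 in normal glucose, and Erg was not with DKK2. All 9 fibroblast markers were above background on every array, and so were all 8 macrophage markers that had a named probe. The scanner software flags a spot as well above background by its own test. By that flag, 84.0% of all probes were well above background with DKK2, 84.7% in high glucose and 76.7% in normal glucose. With shares so high, the marker counts do not settle which cell types the label should name. The arrays differed in brightness: the 75th percentile of the processed signal was 2417 with DKK2, 2383 in high glucose and 1201 in normal glucose. Levels are therefore given as scaled signal, a percent of that percentile on the same array. Scaled signals of different genes come from different probes and were not set against each other. The exception is the sums over cell type markers given below, which follow their brightest probes.

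Promoters are shown for the 5 ligands that differed at least 2-fold between both high glucose arrays, with 250 bases before and 50 after a RefSeq start site, on the gene's strand and 5′ to 3′. Capitals mark matches on either strand to 4 short motifs: the TCF/LEF core CTTTGA, the AP-1 site TGANTCA, the GC box GGGCGG and the TATA box TATAAA.
Wnt9a, GRCm38.p6 chr11:59306680-59306979, plus strand: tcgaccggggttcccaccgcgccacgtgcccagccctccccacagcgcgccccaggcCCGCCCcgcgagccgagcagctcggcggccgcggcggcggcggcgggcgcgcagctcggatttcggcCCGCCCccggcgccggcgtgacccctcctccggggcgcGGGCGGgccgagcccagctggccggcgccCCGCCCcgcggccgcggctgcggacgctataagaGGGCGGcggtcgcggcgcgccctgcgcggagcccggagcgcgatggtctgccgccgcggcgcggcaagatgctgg
Wnt10b, GRCm38.p6 chr15:98778101-98778400, minus strand: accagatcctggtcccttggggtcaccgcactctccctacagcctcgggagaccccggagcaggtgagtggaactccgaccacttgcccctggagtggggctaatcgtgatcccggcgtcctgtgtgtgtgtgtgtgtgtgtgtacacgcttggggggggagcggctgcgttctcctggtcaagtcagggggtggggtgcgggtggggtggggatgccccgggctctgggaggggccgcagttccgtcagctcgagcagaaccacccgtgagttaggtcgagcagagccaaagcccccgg
Wnt4, GRCm38.p6 chr4:137277385-137277684, plus strand: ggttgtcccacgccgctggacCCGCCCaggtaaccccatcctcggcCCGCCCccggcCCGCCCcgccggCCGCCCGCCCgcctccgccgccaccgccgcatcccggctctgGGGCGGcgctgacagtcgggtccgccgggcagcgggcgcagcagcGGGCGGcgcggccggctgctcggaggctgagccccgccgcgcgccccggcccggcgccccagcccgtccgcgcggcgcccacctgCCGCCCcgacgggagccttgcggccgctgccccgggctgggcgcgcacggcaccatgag
Wnt11 first start, GRCm38.p6 chr7:98834862-98835161, plus strand: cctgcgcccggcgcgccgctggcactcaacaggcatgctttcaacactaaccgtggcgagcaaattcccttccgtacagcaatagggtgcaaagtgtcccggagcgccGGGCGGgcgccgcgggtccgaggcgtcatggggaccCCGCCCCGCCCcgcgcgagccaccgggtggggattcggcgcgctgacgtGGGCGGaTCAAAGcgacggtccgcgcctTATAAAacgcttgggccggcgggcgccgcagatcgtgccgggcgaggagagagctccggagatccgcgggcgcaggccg
Wnt2, GRCm38.p6 chr6:18030396-18030695, minus strand: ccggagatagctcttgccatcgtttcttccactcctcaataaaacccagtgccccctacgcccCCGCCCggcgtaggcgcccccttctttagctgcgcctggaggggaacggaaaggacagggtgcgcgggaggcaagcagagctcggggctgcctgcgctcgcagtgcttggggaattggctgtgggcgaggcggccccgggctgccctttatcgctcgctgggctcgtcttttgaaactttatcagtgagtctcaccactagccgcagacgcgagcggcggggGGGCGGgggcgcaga
Of 32851 mouse promoters of this length, 16% held the TCF/LEF core, 7.81% the AP-1 site, 35.7% the GC box and 13.6% the TATA box. Of the 12 start sites listed by RefSeq for 9 of the 10 ligands, 9 held a GC box, 2 a TCF/LEF core, 1 an AP-1 site (the first Wnt5b start) and 1 a TATA box. Their GC content, between 53% and 84.3%, was above the median of 52.7% over all promoters. The first Wnt11 start is the one with a TATA box, 29 bases before the start, and it also holds a TCF/LEF core 50 bases before the start. The other site with a TCF/LEF core is the third Wnt5b start. The promoters of Wnt9a and Wnt4 were rich in GC boxes, with 5 and 8 matches, and that of Wnt10b held none of the 4 motifs. A match is a description of these letters, not a binding site.

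Between the array with DKK2 in high glucose and the array in high glucose alone, ligands differed in both directions. With DKK2, Wnt10b, Wnt9a and Wnt4 were at least 2-fold higher than in high glucose alone, and Wnt11 and Wnt2 were at least 2-fold lower. Wnt9a and Wnt11 stayed past 2-fold in all 9 processing settings. Wnt10b, Wnt4 and Wnt2 fell under 2-fold with normexp background correction, at 0.87, 0.86 and -0.15. All 10 ligands were well above background on both arrays. The count of 3 higher and 2 lower of 10 stands beside 5.09% of all 17825 genes measured on both arrays that were higher and 4.85% that were lower. The list was chosen with earlier results of these data known, so the count describes these genes and is not a test. The 10 listed ligands had a median log2 difference of -0.45, with 4 of 10 above 0, while the median of all genes was 0.08 and 57.8% of them were above 0. Of the 9 ligand genes left off the list, 7 were measured on both arrays, with 1 higher, 0 lower and all 7 above 0. The error SD given with a log2 difference is the scanner's technical error of both arrays, which does not include variation between cultures.

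**Figure D1:**
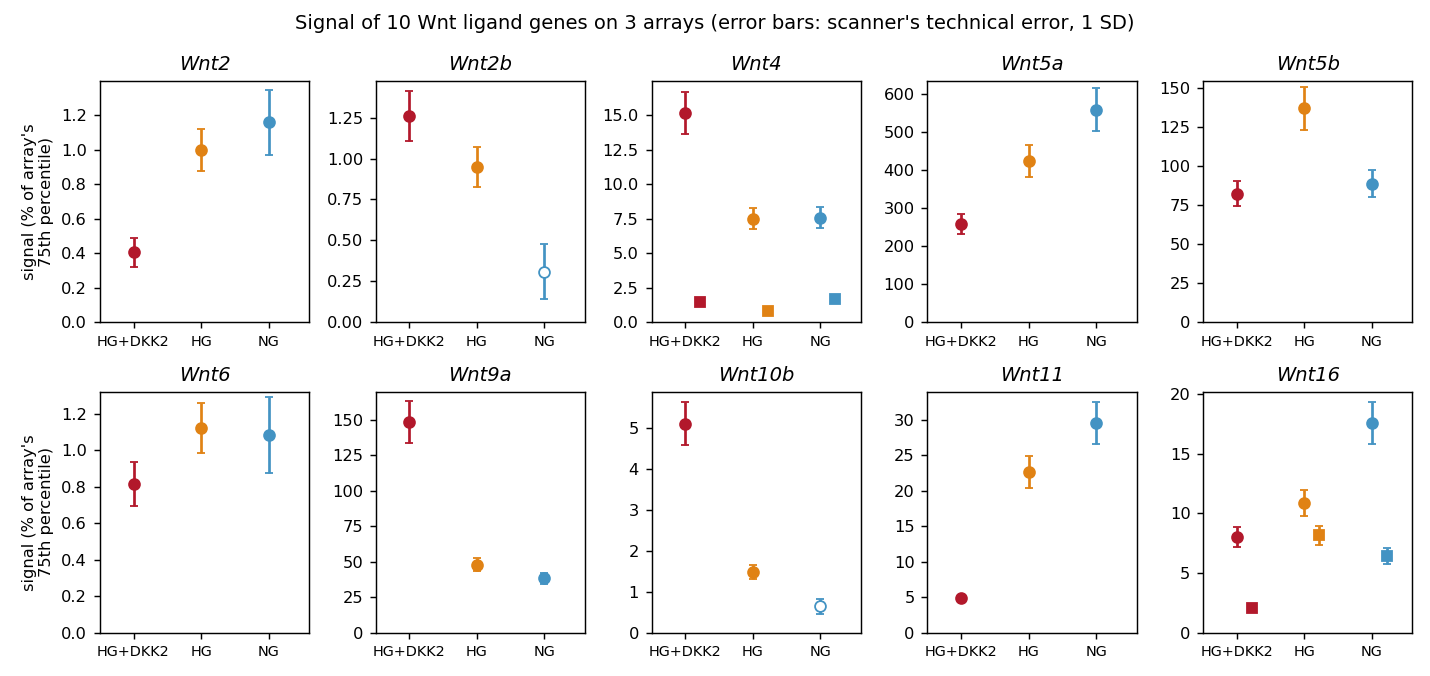
Scaled signal (percent of the array's 75th percentile, y axis, each panel with its own range) of the 10 Wnt ligand genes on the arrays for high glucose with DKK2 (HG+DKK2), high glucose (HG) and normal glucose (NG). Circles are the brightest probe of a gene, squares its second probe, open symbols are not well above background, and bars are the scanner's technical error (1 SD). Wnt9a stood at 148% with DKK2, 48.0% in high glucose and 38.5% in normal glucose, and Wnt11 at 4.87%, 22.6% and 29.6%.

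Wnt9a, a ligand known for its part in joint formation and generally placed in the beta-catenin branch, had a scaled signal of 148% with DKK2, 48.0% in high glucose and 38.5% in normal glucose. Its raw signals were 3586, 1144 and 462. It was 3.09-fold higher with DKK2 than in high glucose alone (log2 1.63, error SD 0.20), and 1.48% of all genes had a difference at least as high. The array with DKK2 was the highest, and the difference between the others was within 2 error SDs.

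Wnt10b, known for promoting bone formation and restraining the formation of fat cells, had a scaled signal of 5.11% with DKK2, 1.48% in high glucose and 0.650% in normal glucose, where it was not well above background. It was 3.46-fold higher with DKK2 than in high glucose alone (log2 1.79, error SD 0.22). The probe was dim, with raw signals of 124, 35.2 and 7.81, and with normexp background correction the log2 difference was 0.87, under 2-fold.

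Wnt4, needed for kidney tubule and female gonad development, had a scaled signal of 15.2% with DKK2, 7.49% in high glucose and 7.58% in normal glucose on its brighter probe. That probe was 2.02-fold higher with DKK2 (log2 1.02, error SD 0.20), just past the size rule. Its dimmer probe, at 1.47%, 0.823% and 1.69%, was higher by 0.84. With normexp the difference was 0.86, with the mean over probes 0.93, with cyclic loess 0.96, with median scaling 0.98 and with quantile normalization 0.996, so the 2-fold call ended under each of these settings.

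Wnt11, a ligand best known for cell movement and polarity in the embryo and for kidney branching, had a scaled signal of 4.87% with DKK2, 22.6% in high glucose and 29.6% in normal glucose. Raw signals were 118, 539 and 355. It was 4.64-fold lower with DKK2 than in high glucose alone (log2 -2.22, error SD 0.21), the largest difference among the 10 ligands, and 0.696% of all genes had a difference at least as low. Across the 9 processing settings that gave it a value the difference ran between -2.26 and -1.75.

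Wnt2, a beta-catenin type ligand with parts in lung and vascular development, had a scaled signal of 0.405% with DKK2, 0.998% in high glucose and 1.16% in normal glucose. Its log2 difference between DKK2 and high glucose was -1.30 (error SD 0.35). The raw signals of 9.78, 23.8 and 13.9 lay close to the lowest signal well above background on these arrays, 7.92 with DKK2, 7.22 in high glucose and 7.57 in normal glucose. With normexp, whose offset of 50 exceeds all of these signals, the difference was -0.15.

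Wnt5a, the best studied ligand that acts without beta-catenin, through the receptor ROR2, had a scaled signal of 258% with DKK2, 424% in high glucose and 558% in normal glucose. The order of the levels was the same as for Wnt11. The log2 difference between DKK2 and high glucose was -0.71 (error SD 0.20), under 2-fold in every setting run, with a range of -0.78 to -0.68. Its close relative Wnt5b stood at 82.3% with DKK2, 137% in high glucose and 88.6% in normal glucose. The Wnt5b difference was -0.73 (error SD 0.20), and here high glucose was the highest array while the others differed by less than the technical error.

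The remaining ligands differed less than 2-fold on their brighter or only probe. Wnt6, expressed in embryonic epithelia, had a scaled signal of 0.815% with DKK2, 1.12% in high glucose and 1.08% in normal glucose, with a log2 difference of -0.46 (error SD 0.28) for DKK2 against high glucose. Wnt2b, a beta-catenin type ligand close to Wnt2, had 1.26% with DKK2, 0.948% in high glucose and 0.308% in normal glucose, with a difference of 0.41 (error SD 0.25). Both probes were dim, with raw signals of 19.7 and 30.5 with DKK2 for Wnt6 and Wnt2b.

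Wnt16, known for its effect on cortical bone, was read on 2 probes that disagreed in size. The brighter probe had a scaled signal of 8.02% with DKK2, 10.9% in high glucose and 17.6% in normal glucose, a log2 difference of -0.44 (error SD 0.21) for DKK2 against high glucose. The dimmer probe had 2.04%, 8.16% and 6.44% in the same order, a difference of -2.00 (error SD 0.21). Averaged over both probes the difference was -1.22. Both probes carry the same accession, and no source used here says which part of the transcript each reads.

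Brightness moved with the size of differences. For DKK2 against high glucose, 8.3% of the 4641 genes with a mean signal under 100 were at least 2-fold higher and 6.29% lower. The corresponding shares of the 13184 genes with a mean signal of at least 100 were 3.97% and 4.34%. Wnt2, Wnt2b, Wnt6 and Wnt10b were among the dim genes, with 1 of 4 higher and 1 lower, and the other 6 ligands among the bright ones, with 2 of 6 higher and 1 lower.

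High glucose alone, set against normal glucose, gave smaller differences. Of the 8 ligands measured on both arrays, 0 were at least 2-fold higher and 0 lower, beside 2.66% of all 16766 genes higher and 5.73% lower. The largest positive value was Wnt5b at 0.63 (error SD 0.20) and the largest negative value was Wnt16 at -0.69 (error SD 0.20). On the second Wnt16 probe the difference was 0.34, so the probes disagreed in sign. Wnt5a stood at -0.40 and Wnt11 at -0.39, both with an error SD of 0.20, while Wnt9a stood at 0.32. Wnt4 was at -0.02 on its brighter probe and -1.04 on its dimmer one. Wnt2 and Wnt6 were at -0.22 and 0.05, with error SDs of 0.29 and 0.33.

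Wnt10b and Wnt2b were well above background in high glucose and not in normal glucose. In high glucose Wnt2b was at least 1.51-fold higher, set against the dimmest signal above background on the normal glucose array. Wnt10b was brighter than that signal in normal glucose, so it was set against its own value there. It was 2.27-fold higher (log2 1.18, error SD 0.44), which is a point ratio and not a lower bound. With normexp, Wnt2 and Wnt6 were both at -1.61 and Wnt16 was at -1.03, so 3 of 8 were at least 2-fold lower, beside 23.5% of all genes in that setting. There the median of all genes moved to -0.26, against 0.08 in the main one.

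DKK2 in high glucose, set against normal glucose, shares its DKK2 array with the first comparison and its normal glucose array with the second. Of 8 ligands measured on both arrays, 2 were at least 2-fold higher and 4 lower, beside 10.5% and 10.3% of all 16676 genes. Wnt11 was at -2.60 (error SD 0.21), 6.08-fold lower. Wnt2 followed at -1.52 (error SD 0.38), Wnt16 at -1.13 (error SD 0.21) and Wnt5a at -1.11 (error SD 0.20, -0.99 with normexp). Wnt9a was 3.86-fold higher, a log2 difference of 1.95 (error SD 0.20). Wnt4 was 2.00-fold higher on its brighter probe, at the size rule itself, and at -0.20 on its dimmer probe, so its direction depends on the probe. With normexp Wnt4 was at 0.16 and with the mean over probes at 0.40. Wnt10b was 7.87-fold higher against its own dim value in normal glucose (log2 2.98, error SD 0.44), and Wnt2b was at least 2.00-fold higher. Wnt5b was at -0.11, and Wnt6 was at -0.41 but at -1.69 with normexp.

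**Figure D2:**
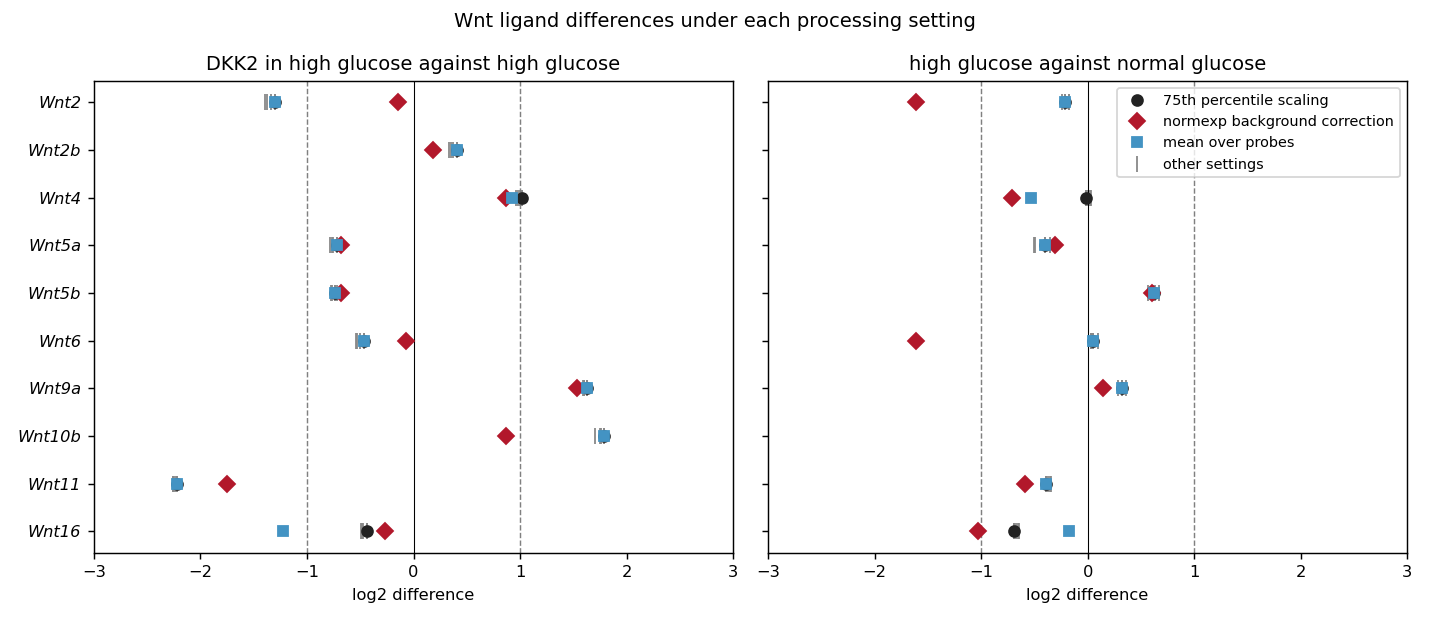
Log2 difference (x axis) of each Wnt ligand under the processing settings run, for DKK2 in high glucose against high glucose (left) and high glucose against normal glucose (right). Black circles are the main setting, red diamonds normexp background correction, blue squares the mean over probes and grey ticks the other settings, and dashed lines mark 2-fold. For DKK2, Wnt9a stayed between 1.53 and 1.63 and Wnt11 between -2.26 and -1.75, while Wnt2 came to -0.15 and Wnt10b to 0.87 with normexp.

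The other 9 Wnt ligand genes on the array were mostly dim. Wnt3a was not well above background on any array, and the other 8 were on at least 1. For DKK2 against high glucose, 7 of them were measured on both arrays, with 1 higher, 0 lower and all 7 above 0 (median 0.52), beside the 57.8% of all genes above 0. Wnt10a, a beta-catenin type ligand close to Wnt10b, was the higher one, with a scaled signal of 10.7% with DKK2, 4.27% in high glucose and 2.92% in normal glucose, a log2 difference of 1.33 (error SD 0.21). Wnt3 was well above background with DKK2 only and at least 2.70-fold higher there than in high glucose. The rest were read under 2-fold, with Wnt8a at 0.94, Wnt9b at 0.58, Wnt7b at 0.52, Wnt7a at 0.39, Wnt8b at 0.32 and Wnt1 at 0.16, each on its brighter or only probe. On these probes Wnt7a, Wnt8b and Wnt1 lay within 2 error SDs of 0 (error SDs 0.23, 0.23 and 0.20). The dimmer probes of Wnt8b and Wnt1 were at 1.35 (error SD 0.34) and 0.88 (error SD 0.27), so the 2-fold call of Wnt8b depends on the probe. Between high and normal glucose, Wnt8a was the 1 of 7 past 2-fold, at -1.28 (error SD 0.39).

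Ligand export stood as follows. Porcn, the acyltransferase that attaches the lipid to Wnt proteins, had a scaled signal of 75.9% with DKK2, 128% in high glucose and 154% in normal glucose. With DKK2 it was at -0.75 (error SD 0.20) against high glucose and -1.02 against normal glucose. Wls, the carrier that brings Wnt proteins to the cell surface, had 610%, 619% and 604% in the same order, differences within the technical error. Of 5 secretion genes measured, 0 were past 2-fold between DKK2 and high glucose. The cargo receptor gene Tmed2 was the 1 past 2-fold between high and normal glucose, at 1.15 (0.80 with the mean over probes). Between DKK2 and normal glucose it was also higher, at 1.23, and Porcn was the 1 lower.

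Among the Frizzled receptors and co-receptors, 0 of 18 were higher and 1 lower with DKK2 in high glucose, beside 5.09% and 4.85% of all genes. Ror1 was not counted, since it was well above background in high glucose and not with DKK2. Its log2 difference was -1.68 (error SD 0.42). Fzd4, the endothelial receptor that also answers Norrin, was the lower one counted at -2.11 (error SD 0.20), with scaled signals of 13.6% with DKK2, 58.6% in high glucose and 44.6% in normal glucose. Lrp6 was at -0.91 and Lrp5 at 0.16 (error SD 0.20 each). In high against normal glucose 3 of 19 were lower and 0 higher, among them Ptk7, a polarity co-receptor gene, at -2.58 and Fzd5 at -1.62 (-0.80 with the mean over probes).

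Secreted antagonists and R-spondins, which hold back or raise Wnt signals outside the cell, had 4 of 17 lower and 0 higher with DKK2. The antagonist genes Dkk1 and Sost were not counted, since they were well above background with DKK2 only. They were at least 2.44-fold and 3.02-fold higher there than in high glucose. Sfrp2 was at -3.63, with scaled signals of 29.1% with DKK2, 359% in high glucose and 352% in normal glucose. Sfrp1, also a soluble Frizzled decoy, was at -2.17 and Rspo2, an amplifier of Wnt signals, at -1.80. The endogenous Dkk2 gene was at 0.86 with DKK2 (1.26 with normexp, past 2-fold), and at -1.56 in high against normal glucose. The error SD was 0.20 for each of Sfrp2, Sfrp1, Rspo2 and Dkk2.

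The beta-catenin branch was read by its relay and feedback target genes. Of 13 feedback targets measured, 4 were lower and 0 higher with DKK2 (median -0.44), and of 15 relay genes 2 were lower and 0 higher (median 0.15). The target Dkk1 was not counted, since it was well above background with DKK2 only. It was at least 2.44-fold higher there than in high glucose. Lgr5, the R-spondin receptor gene, had scaled signals of 33.4% with DKK2, 318% in high glucose and 163% in normal glucose, a difference of -3.25 for DKK2 against high glucose. Nkd1, a feedback inhibitor, was at -2.11 (-1.47 with normexp) and Tnfrsf19 at -1.48 (-0.60 with the mean over probes). Axin2, the most widely used feedback target, was at -0.80 (error SD 0.22) on a dim probe, and at -0.38 with normexp. Its scaled signals were 1.84% with DKK2, 3.20% in high glucose and 2.12% in normal glucose, from raw signals of 44.5, 76.2 and 25.5. In high against normal glucose Axin2 was at 0.59 (error SD 0.24) but at -1.11 with normexp. In that setting 23.5% of all genes were at least 2-fold lower and their median was -0.26. The transcription factor genes Tcf7l1 and Tcf7l2 were at -1.20 and -1.08 (Tcf7l2 at -0.77 with the mean over probes). In high against normal glucose 0 of 12 targets were past 2-fold, while 2 of 15 relay genes were lower, Tcf7l2 at -1.28 and Gsk3b, a kinase of the beta-catenin destruction complex, at -1.02 (-0.81 and -0.17 with the mean over probes).

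The planar polarity and calcium branch, which ligands such as Wnt5a and Wnt11 can engage, had 2 of 14 genes lower and 0 higher with DKK2. The lower genes were Daam2 at -1.70 and Prickle1 at -1.18. Over all 92 other pathway genes on the array, 87 were measured with DKK2 and in high glucose, of which 1 was higher and 13 lower (median -0.04). Wnt3, Wnt3a, Dkk1, Sost and Ror1 were not among those counted. Between high and normal glucose the figures were 1 higher and 7 lower of 84 (median -0.0036), and between DKK2 and normal glucose 5 higher and 21 lower of 83 (median -0.34). The share of all genes given above for each comparison is the background to these counts.

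**Figure D3:**
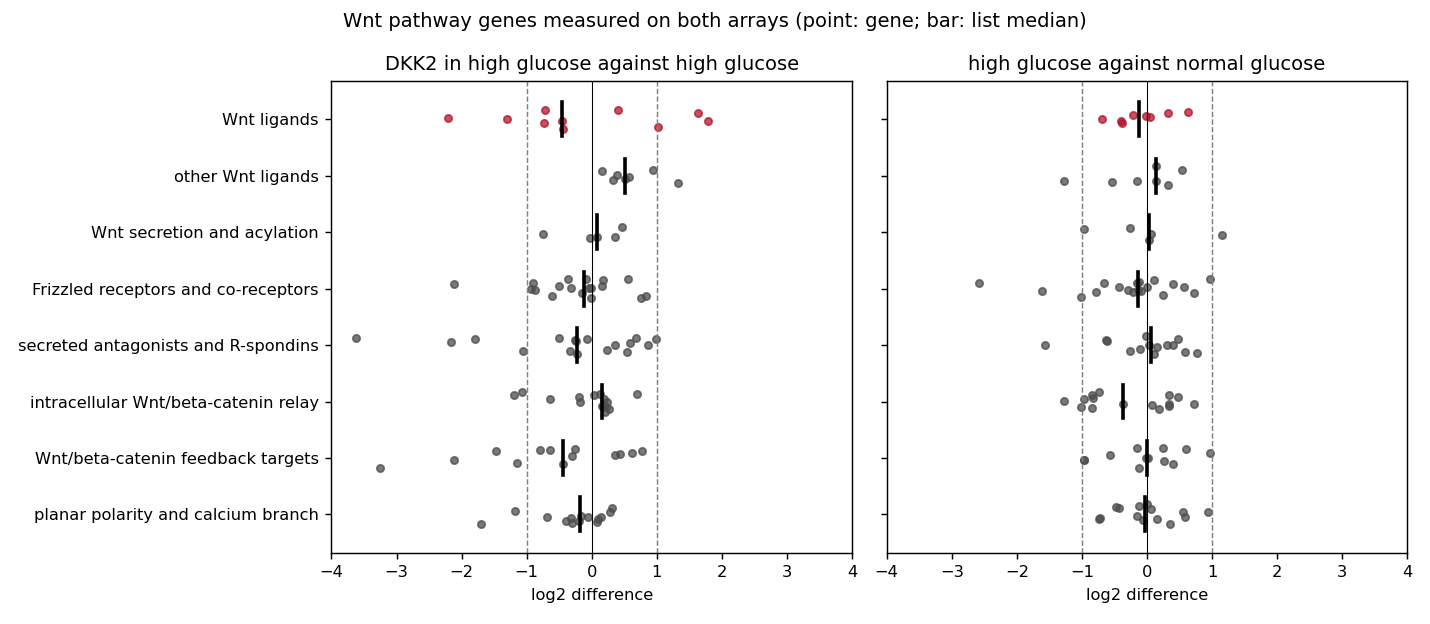
Log2 difference (x axis) of Wnt pathway genes by list, for DKK2 in high glucose against high glucose (left) and high glucose against normal glucose (right). Points are genes measured on both arrays, bars are list medians and dashed lines mark 2-fold. With DKK2 the 10 ligands span -2.22 to 1.79, and the genes farthest left are Sfrp2 at -3.63 and Lgr5 at -3.25.

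Markers of several cell types also differed between both high glucose arrays, in either direction. The counts below stand beside 5.09% of all genes that were at least 2-fold higher with DKK2 and 4.85% that were lower. Of 8 macrophage markers measured, 5 were higher with DKK2 and 0 lower, and their summed signal was 7.63 times the array's 75th percentile with DKK2, 2.72 times in high glucose and 2.35 times in normal glucose. Of 6 adipocyte markers 5 were lower, with sums of 8.08, 23.5 and 15.5 in the same order, and of 6 skeletal muscle markers 5 were lower, with sums of 0.557, 1.71 and 2.12. Fibroblast markers had 3 of 9 lower and sums of 308, 430 and 456, and smooth muscle and pericyte markers 1 of 8 lower and sums of 27.5, 48.3 and 77.6. Endothelial markers had 4 of 13 lower and 0 higher, with sums of 7.91, 7.32 and 4.88. A sum follows its brightest probes, and the median raw signal of the endothelial markers was 207, 408 and 59.9. Schwann cell and glia markers had 2 of 5 lower and sums of 1.05, 1.67 and 1.55, and epithelial markers 1 of 4 higher and 1 lower, with sums of 2.03, 0.295 and 0.272. Within cultures of mixed cells, fewer cells of a type and less RNA per cell cannot be told apart. The part of these cell types in the ligand differences was not tested.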

How the data were processed

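Agilent's Feature Extraction 11.5.1.1 read the scans, per the file headers, and the deposited files hold intensity per spot, corrected for background, on a linear scale. The deposited value table equals these intensities averaged per probe within a fraction of 0.001 for 99.8% of probes. Groups came from the sample titles. Control spots (1377 per array) and outlier spots (136 with DKK2, 115 in high glucose, 110 in normal glucose) were left out, and 0 spots were saturated. Log2 signal was scaled to each array's 75th percentile and averaged over spots. Accessions named 27496 probes through RefSeq (GRCm38.p6), the array design being on mm9. A gene was read on its brightest probe among those above background on at least 1 array, and counted where above background on both. The size rule was 2-fold. The members and the 7 other lists were chosen with earlier results of these data known. All members are named, and of other lists the largest differences past 2-fold (3 for DKK2, 2 for glucose) and 6 fixed genes. Promoters are from RefSeq. The median signal served for normexp since the files hold no mean signal. The counting was tested on simulated data. Values were computed in Python 3.11.15 (pandas 2.3.3, numpy 2.4.6), figures in matplotlib 3.10.9 and normalizations in limma 3.58.1 under R 4.3.3.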

Additional observations from a re-analysis of the deposited data

How the results depend on the processing

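The 10 alternatives were rules of 1.5-fold and 3-fold, the deposited table, the mean over probes, dropping the filter on dim probes or asking every array for a signal of at least 100, normexp (offset 50), and median, quantile and cyclic loess normalization. Only counts that moved by a factor above 1.5, or to or from 0, are listed below. Smaller moves are left out. Among them, for DKK2 against high glucose, are the loss of Wnt4 with quantile normalization (0.996) and the gain of Wnt16 with the mean over probes (-1.22). For DKK2 against high glucose, the ligands numbered 1 higher and 1 lower both with normexp (2.85% and 2.67% of all genes) and with the signal of at least 100 (5 ligands left; 3.25% and 4.04%), with 4 lower at 1.5-fold and 1 at 3-fold. The other pathway genes numbered 4 higher without the filter (6.28% of all genes) and 0 higher with the signal of at least 100 (3.25%). At 1.5-fold 10 were higher and 21 lower, and at 3-fold 0 and 7. The shares of all genes past 1.5-fold and 3-fold were not computed, so counts under those rules have no background here. For high against normal glucose, the ligands numbered 2 higher without the filter (5.26% of all genes) and 3 lower with normexp (23.5%). At 1.5-fold 1 was higher and 1 lower. The other pathway genes numbered 3 higher and 23 lower with normexp (median -0.52), beside 1.01% and 23.5% of all genes. They numbered 3 higher with median scaling (3.24% of all genes), 2 without the filter (5.26%) and 0 with the mean over probes (2.38%). At 1.5-fold 9 were higher and 19 lower, and at 3-fold 0 and 2. For DKK2 against normal glucose, 1 ligand was higher with normexp (5.65% of all genes), cyclic loess (8.36%) and the signal of at least 100 (8.71%). The same count came with the mean over probes (9.69%) and at 3-fold. Without the filter 4 ligands were higher (12.8%), and 1 was lower at 3-fold. Beside the same shares, the other pathway genes numbered 2 higher with normexp (median -0.67), 3 with cyclic loess and 9 without the filter. They numbered 2 higher with the signal of at least 100, 15 at 1.5-fold and 1 at 3-fold, where 12 were lower. The causes were not tested, except that rules, filters and offset act by construction. Over all genes, normexp gave 170 higher and 3942 lower between high and normal glucose (446 and 961 in the main setting), and 942 higher and 4004 lower between DKK2 and normal glucose (1744 and 1724), where the median of all genes was -0.25 (0.12). No ligand past 2-fold in the main setting changed sign under any alternative, while Wnt6 in high against normal glucose, at 0.05 there, was at -1.61 with normexp. Signal near background limits Wnt2, Wnt2b, Wnt6 and Wnt10b most. No paired analysis was possible because each condition had 1 array.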

Other observations

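In the RefSeq gene order of GRCm38.p6, 4 pairs of Wnt genes are next to each other with no protein-coding gene between them. Their values for DKK2 against high glucose were as follows. Wnt9a was at 1.63, while its neighbour Wnt3a on chromosome 11 was not well above background on any array. Wnt10b was at 1.79 (0.87 with normexp) and its neighbour Wnt1 on chromosome 15 at 0.16 on its brighter probe and 0.88 on its dimmer one. Wnt6 was at -0.46 and its neighbour Wnt10a on chromosome 1 at 1.33. Wnt3 was at least 2.70-fold higher and its neighbour Wnt9b on chromosome 11 was at 0.58. These values come from 1 array per condition, and the difference within a pair was not tested.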
